A study of Mus musculus with 2 samples.

Results

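The chemokine system was read from 83 probes for 59 genes, of 37005 gene names on the array. The members are every gene whose name on the array is *Ccl*, *Cxcl*, *Ccr* or *Cxcr* with a number, together with *Cx3cl1*, *Cx3cr1*, *Xcl1*, *Xcr1*, *Pf4* and the atypical receptors *Ackr1* to *Ackr4*. They comprise 37 ligands and 22 receptors. This rule uses no measured value.

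Chemokines are small secreted proteins that form gradients along which leukocytes and microglia move. They bind G protein-coupled receptors on the moving cell, and many ligands share a receptor, so that a ligand and its receptor are usually made by different cells. Atypical chemokine receptors bind the same ligands without the usual G protein signal and take them up or carry them. In brain, neurons hold fractalkine, encoded by *Cx3cl1*, and microglia carry its receptor, encoded by *Cx3cr1*. Monocyte-attracting ligands such as *Ccl2* and *Ccl12* and the interferon-responsive *Cxcl10* are made by glia after injury.

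The study asked how the loss of connexin 30 (Cx30), a gap junction protein of astrocytes encoded by *Gjb6*, changes the striatal response to the dopaminergic neurotoxin MPTP. RNA was analysed from the striatum of male WT mice (strain label C57BL/6J) and male Cx30 KO mice (strain label Cx30-LacZ), both killed on day 1 after MPTP. All mice were 8 weeks old and received 4 intraperitoneal injections of 20 mg/kg at 2 h intervals. Each genotype is 1 single-colour Agilent array hybridised with the pooled RNA of 2 mice, so there are no replicates, the genotypes could not be tested against each other, and precision is limited by how few arrays there are. The deletion is present in every cell of the Cx30 KO mice, and the Cx30 KO line came from sperm of mutant males with C57BL/6 oocytes. By the methods both genotypes were bred from crosses between heterozygous mice, whereas their strain labels differ. The part of strain background in the values was not tested. No array of NS-treated mice was analysed here, and every value below compares Cx30 KO with WT after MPTP. In whole tissue, fewer cells of a type and less RNA per cell cannot be told apart.

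The values are processed signals, the background-subtracted brightness of a probe in arbitrary units, and the error after each ± is the one the scanner software gives for a spot. The log2 ratio is Cx30 KO minus WT after each array was scaled to its 75th percentile (401 in WT and 382 in Cx30 KO). A probe was counted as seen where the software marked it well above background, for which the lowest signal was 19.8 in WT and 17.4 in Cx30 KO. The log2 ratio of a single spot had an SD of 0.07 over 298 probes printed repeatedly, and between probes designed to 1 gene the SD was 0.25 (7147 genes). Neither covers variation between mice. *Gjb6* was 1788 ± 179 in WT and 111 ± 11.6 in Cx30 KO at its brighter probe, 15.4-fold lower, which matches the genotype labels. The study's criteria were a ratio of at least 1.5 with a Z-score of at least 2, or a ratio of at most 0.66 with a Z-score of at most −2. The Z-score was taken here over the 1000 probes nearest in mean signal.

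Of the 59 chemokine and receptor genes, 35 were seen on at least 1 array. By the study's criteria 8 of these were lower in Cx30 KO, which is 22.9%, against 3.39% of the 22012 genes seen (746 genes). Another 6 were higher, which is 17.1%, against 2.37% of all genes (522 genes). The remaining 21 met neither. The study itself reported that, after MPTP, no chemokine or cytokine of its microglial gene sets differed between the genotypes. Those gene sets were not compared here. With ratio limits of 2 and 0.5 there were 5 lower and 3 higher members (428 and 340 of all genes), and with a Z-score over all probes 4 and 4 (455 and 502 of all genes). The median log2 ratio of the 35 genes was −0.05, close to 0.03 over all genes, so members lay on both sides of an almost unmoved centre. The filter favours differences where a gene passes on 1 array only, and 3 genes were seen in WT only and 4 in Cx30 KO only, of which *Cxcl1* was nearly equal. At their limits *Ccl7*, *Cxcl3* and *Ccr3* no longer met the criteria, which leaves 6 lower and 5 higher members (583 and 377 of all genes). Over the 28 genes seen on both arrays, 5 were lower and 5 were higher (17.9% each), against 2.47% and 1.61% of all such genes. The log2 ratios of these 10 genes were, in size, 3.22 to 7.69 times the error of the ratio. Of the 18 that met neither criterion, 2 exceeded the error by more than 2 times, *Ccl2* and *Cxcl16*.

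**Figure D1:**
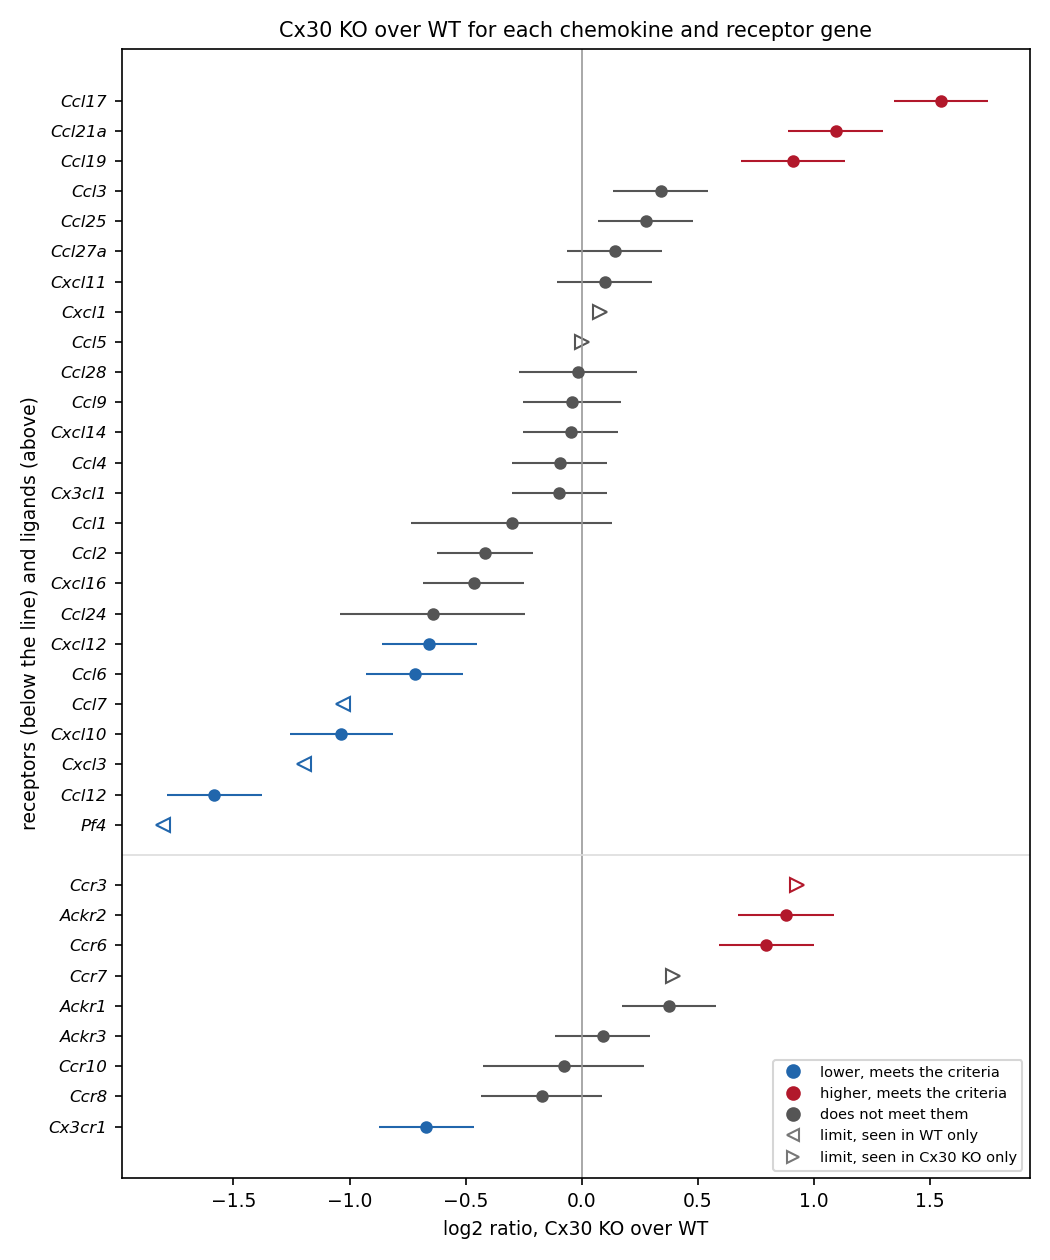
Log2 ratio of Cx30 KO over WT for 34 of the chemokine and receptor genes seen on at least 1 array, ligands above and receptors below the line. Points are single arrays of 2 pooled mice with bars for the error given by the scanner software, and open triangles are limits for genes seen on 1 array only, where *Ccl5* has a limit of 0. The ligands run from *Pf4* and *Ccl12* at the lower end to *Ccl17* at 1.55, and *Cx3cr1* is the 1 receptor that met the criteria as lower.

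Of 37 ligands, 25 were seen, and their median log2 ratio was −0.10. By the criteria 7 were lower (28%, against 3.39% of all genes) and 3 were higher (12%, against 2.37%). Among 10 receptors seen of 22, 1 was lower (10%) and 3 were higher (30%), with a median of 0.23. Neither median changed with genes seen on 1 array set at their limits. On both arrays, where 20 ligands and 8 receptors remain, 2.47% of all genes were lower and 1.61% higher. There the ligands were 4 lower (20%) and 3 higher (15%) with a median of −0.07. The receptors were 1 lower (12.5%) and 2 higher (25%) with a median of 0.01. The receptor median of 0.23 thus rested on receptors seen in Cx30 KO only.

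Among the monocyte-attracting CC ligands, *Ccl12* and *Ccl7* met the criteria as lower and *Ccl2* did not meet them. *Ccl12*, the mouse MCP-5, measured 694 ± 69.6 in WT against 221 ± 22.4 in Cx30 KO (log2 ratio −1.58 ± 0.21), with the lowest Z-score of the family (−5.09). *Ccl7*, which encodes MCP-3, was 37.2 ± 6.18 in WT and below the well-above-background mark in Cx30 KO (4.40 ± 4.42), so it was at least 2.04-fold lower, a limit that does not itself meet the criteria. *Ccl2*, which encodes MCP-1, was 301 ± 30.3 in WT and 214 ± 21.7 in Cx30 KO, and its log2 ratio of −0.42 ± 0.21 did not meet the criteria. These 3 genes lie within a run of 6 ligand genes on chromosome 11 (mm9, probes from 81850650 to 81990510). The eosinophil attractant *Ccl11* and *Ccl8* of the same run were not seen on either array. *Ccl1*, a ligand of *Ccr8*, was 24.4 ± 4.88 and 18.8 ± 4.19, near the floor of both arrays. All 4 genes of this run that were seen had ratios below 0 on the log2 scale, and 2 met the criteria.

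The neighbouring run of 5 CC ligands on the same chromosome (83339296 to 83478111) showed no common direction. *Ccl6*, a myeloid cell attractant of rodents, was 233 ± 23.6 in WT against 134 ± 13.9 in Cx30 KO (log2 ratio −0.72 ± 0.21), with a Z-score of −2.03, just past the limit. *Ccl9*, whose gene stands beside it, was 194 ± 19.97 and 179.5 ± 18.4, with a log2 ratio of −0.04. The macrophage inflammatory proteins lay on either side of 0. *Ccl3* (MIP-1α) was 403 ± 40.6 and 486 ± 48.8, a log2 ratio of 0.34 ± 0.20. *Ccl4* (MIP-1β) was 1022 ± 102 and 909.8 ± 91.1, a log2 ratio of −0.10 ± 0.20. A second probe of *Ccl4* gave −0.05. None of these 3 met the criteria. *Ccl5*, the T cell and monocyte attractant RANTES, was 4.65 ± 3.99 in WT and 18.2 ± 3.91 in Cx30 KO, where it was barely above the floor, and no fold can be given.

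**Figure D2:**
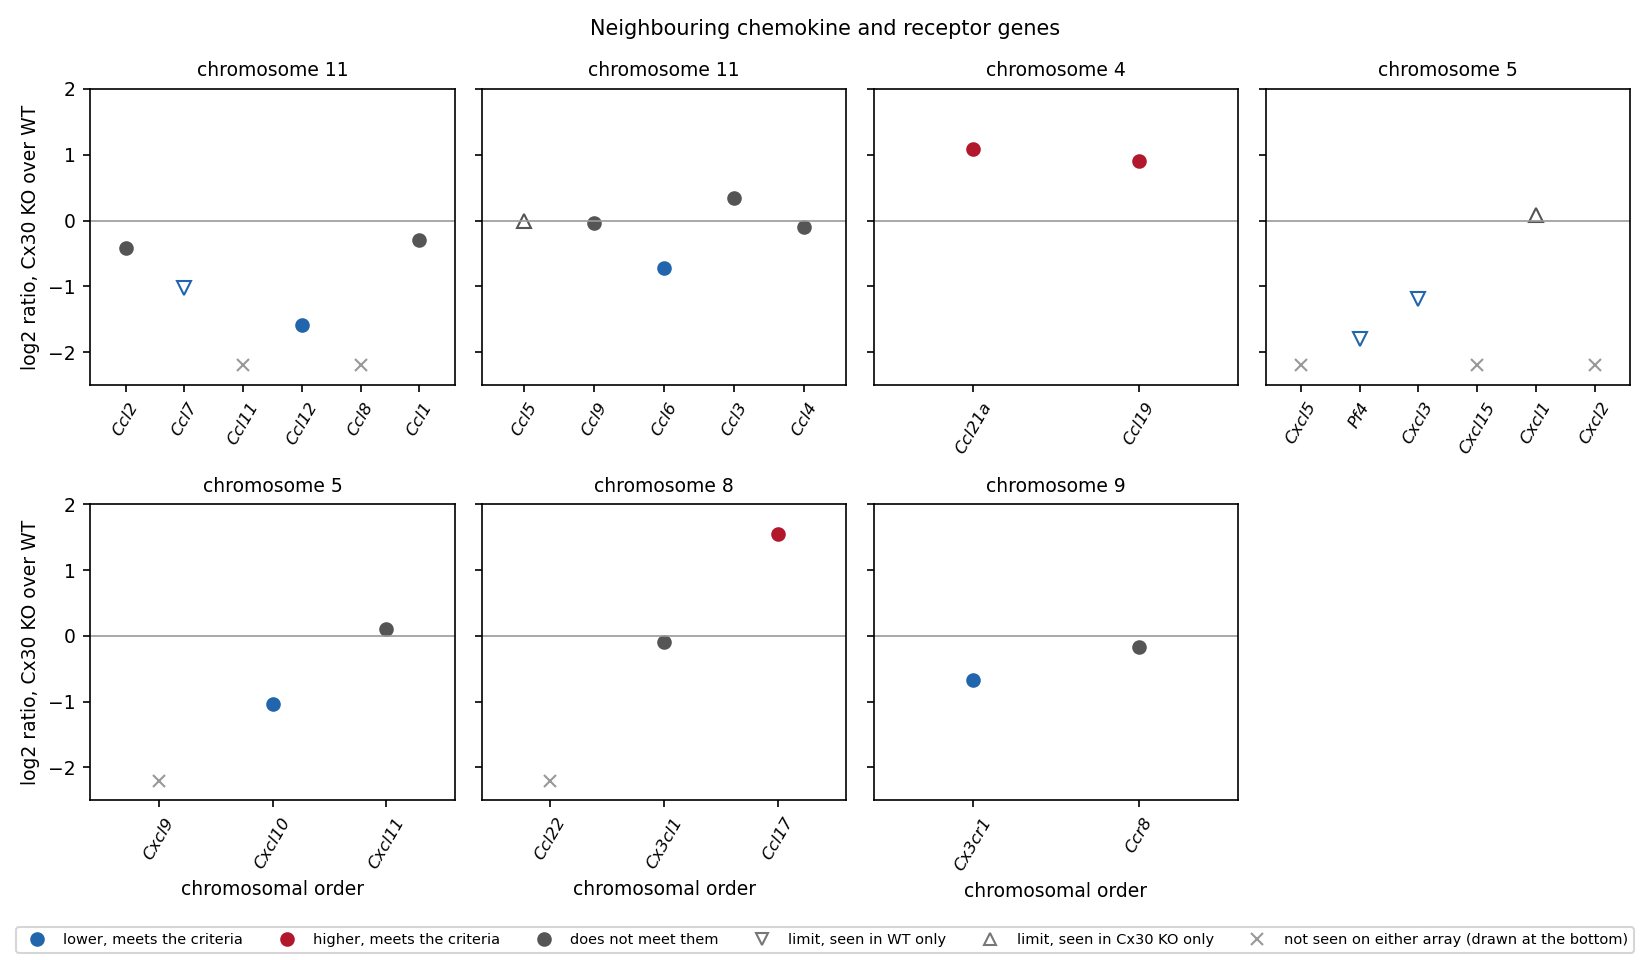
Log2 ratio of Cx30 KO over WT for neighbouring chemokine and receptor genes, each panel being a run of genes with gaps of at most 500 kb in which at least 2 genes were seen. Points are single arrays per genotype, open triangles are limits, and crosses at the bottom are genes seen on neither array. The 4 genes seen in the *Ccl2* to *Ccl1* run all lie below 0, whereas *Ccl21a* and *Ccl19* on chromosome 4 both lie above it.

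The 3 ligands that were higher in Cx30 KO belong to the CC family. *Ccl17* (TARC), a ligand of the T cell chemokine receptor *Ccr4*, was 1014 ± 101 in WT against 2819 ± 282 in Cx30 KO (log2 ratio 1.55 ± 0.20). *Ccl21a*, which guides T cells and dendritic cells into lymphoid tissue, was 570.3 ± 57.2 in WT against 1158 ± 116 in Cx30 KO (log2 ratio 1.09 ± 0.20), with a Z-score of 3.56. *Ccl19*, the other ligand of the same receptor, was 78.2 ± 8.997 and 139.8 ± 14.5, with a log2 ratio of 0.91 ± 0.22 and a Z-score of 2.05. Both probes lie within 18.3 kb on chromosome 4. The mouse genome holds near-identical copies of *Ccl21a*, *Ccl19* and *Ccl27a*, which 60-mer probes may not separate, so these values can stand for several copies.

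The remaining CC ligands did not meet the criteria. *Ccl24* was 29.8 ± 4.998 and 18.2 ± 3.95, with a log2 ratio of −0.64 ± 0.40 whose error reflects the dim signals. *Ccl25*, a thymus and gut ligand, was 917 ± 91.9 and 1057 ± 106, with log2 ratios of 0.28, 0.27 and 0.66 at the probes seen. *Ccl27a*, a skin chemokine, was 4734 ± 473 and 4969 ± 497, with 0.14, 0.12 and 0.38 at its probes. *Ccl28*, a mucosal ligand of the same receptor, was 54.5 ± 6.84 and 51.3 ± 6.28 (−0.02). *Ccl20*, *Ccl22* and *Ccl26* were not seen.

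Of the 8 CXC ligands seen, 4 met the criteria as lower in Cx30 KO (50%, against 3.39% of all genes). As higher, 0 met them, against 2.37% of all genes. Among these 4, *Cxcl3* and *Pf4* were seen in WT only, and *Cxcl3* did not meet the criteria at its limit. Only 5 of the 8 were seen on both arrays. *Cxcl10*, which encodes the interferon-inducible IP-10, was 156 ± 16.2 in WT against 72.2 ± 8.18 in Cx30 KO (log2 ratio −1.04 ± 0.22). Its second probe was not seen on either array. *Cxcl3*, a neutrophil attractant, was 41.9 ± 5.89 in WT and 3.62 ± 3.63 in Cx30 KO, at least 2.29-fold lower. *Pf4*, the platelet factor 4 gene that macrophages also express, was 63.7 ± 7.78 in WT and 17.0 ± 4.32 in Cx30 KO, at least 3.49-fold lower. Platelet markers were low on both arrays, with *Gp1ba* and *Ppbp* seen on neither. *Itga2b* was seen in WT only (24.4 ± 4.92 and 12.8 ± 3.97), and *Gp9* was 38.6 ± 5.72 and 36.1 ± 5.21. The cell source of *Pf4* was not tested. *Cxcl3* and *Pf4* neighbour each other on chromosome 5, and *Cxcl1* of the same run was nearly equal on both arrays (23.2 ± 5.41 in WT and 23.4 ± 4.97 in Cx30 KO).

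*Cxcl12* (SDF-1), which vessels, meninges and neurons express constitutively, was 2027 ± 203 in WT against 1223 ± 122 in Cx30 KO (log2 ratio −0.66 ± 0.20). This probe was designed on the transcript NM_001012477. A dimmer probe on NM_021704 had 23.2 ± 4.65 and 27.8 ± 4.50, a log2 ratio of 0.33, so the probes of *Cxcl12* disagree in direction, and their mean of −0.16 did not meet the criteria. *Cxcl14*, which neurons express, was 6270.4 ± 627 and 5774 ± 577 with a log2 ratio of −0.05. *Cxcl16*, a membrane-bound ligand, was 124 ± 13.1 and 85.7 ± 9.30 (−0.47), and −0.15 at its other probe. *Cxcl11* had 203346 ± 20335 and 207104 ± 20711 at one probe and 2895 ± 290 and 2962 ± 296 at the other, both with a log2 ratio of 0.10. These probes differ widely in brightness, and whether either measures *Cxcl11* RNA was not tested. *Cxcl2*, *Cxcl5*, *Cxcl9*, *Cxcl13*, *Cxcl15* and *Cxcl17* were not seen, nor was *Xcl1*.

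**Figure D3:**
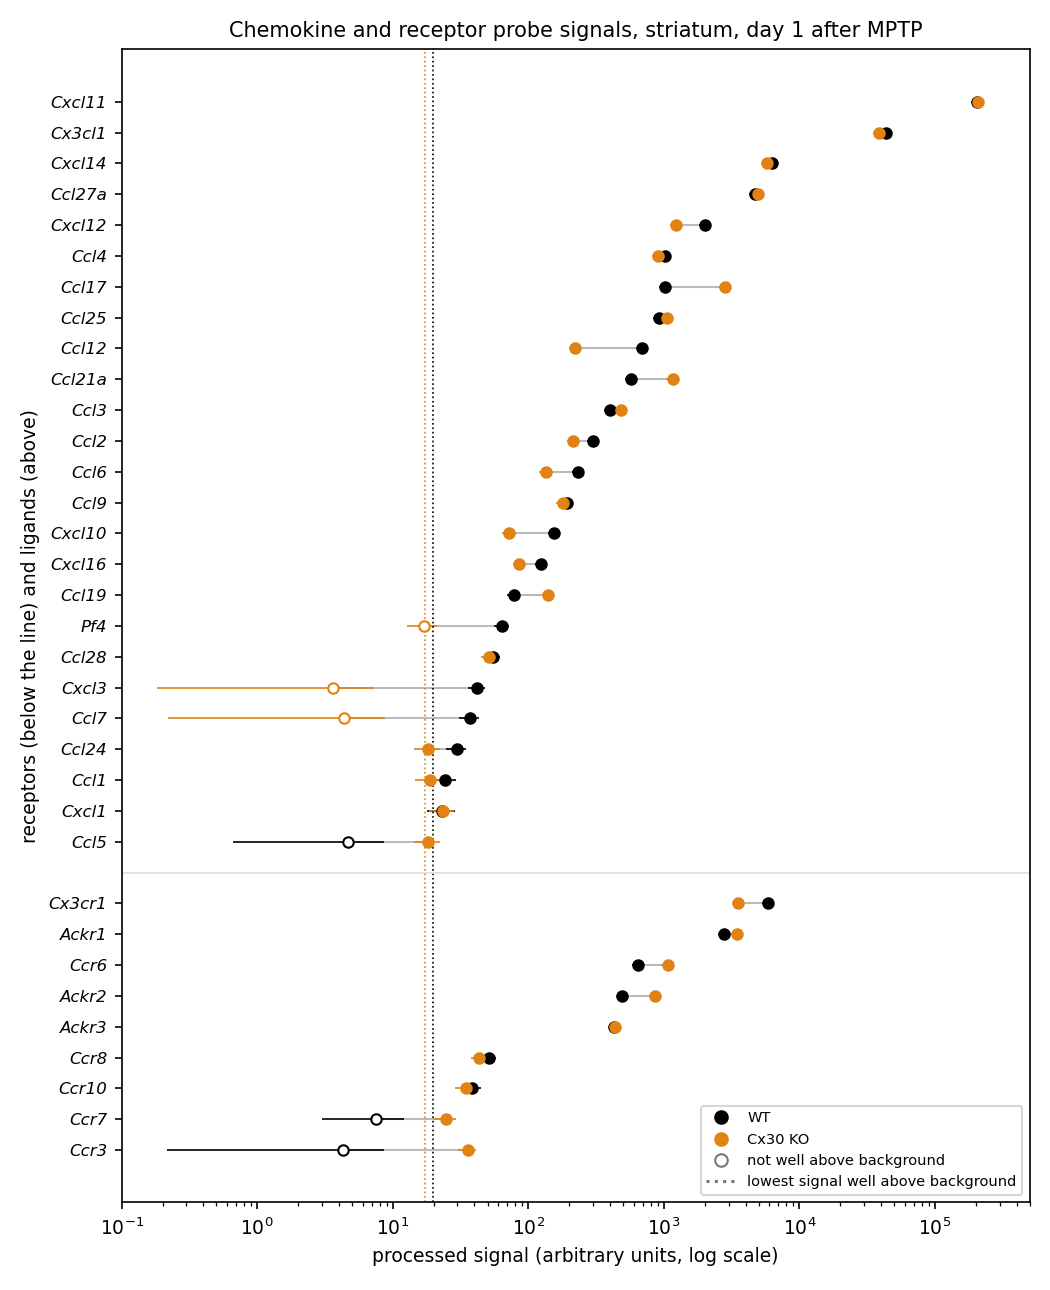
Processed signal in WT (black) and Cx30 KO (orange) for the brightest seen probe of 34 genes, on a log axis. Bars are the software's spot errors, cut short at the left where they reach 0, open points are signals not well above background, and dotted lines mark the lowest signal that was. Positions along the axis compare genotypes for 1 probe and do not rank genes. *Ccl12* stands at 694 (WT) and 221 (Cx30 KO), *Ccl17* at 1014 and 2819, whereas the points of *Cxcl11*, *Cxcl14* and *Ccl27a* nearly coincide.

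Promoters are shown for 5 ligands, chosen after their values and matches were seen, to set motifs of inducible transcription beside the values. They are the 4 ligands that met the criteria and hold a motif, and *Ccl12*, which has the lowest Z-score and holds none. *Ccl6*, *Cxcl12*, *Pf4* and *Ccl21a* met the criteria and hold none either, and *Ccl7* has no entry. The table of RefSeq promoters (GRCm38.p6) held 44 of the 59 genes in 48 entries, and the 250 bases before each start were searched on both strands. The motifs were the interferon-stimulated response element (ISRE: GAAA, any 2 bases, GAAA), the NF-kB motif (GGG, any 2 bases, TTTCC) and the interferon-gamma activated site (GAS: TTC, any 3 bases, GAA), of which the last reads the same on both strands. No 2 matches overlapped in the promoters shown. Capitals mark a match. *Cxcl10* (chr5:92348890-92349139, minus strand) holds an ISRE starting 213 bases before its start, *Ccl19* (chr4:42756366-42756615, minus strand) an ISRE 208 bases before, *Cxcl3* (chr5:90785851-90786100, plus strand) an NF-kB motif 73 bases before, and *Ccl17* (chr8:94810203-94810452, plus strand) a GAS 99 bases before. *Ccl12* (chr11:82101595-82101844, plus strand) holds no match in this window.
Cxcl10: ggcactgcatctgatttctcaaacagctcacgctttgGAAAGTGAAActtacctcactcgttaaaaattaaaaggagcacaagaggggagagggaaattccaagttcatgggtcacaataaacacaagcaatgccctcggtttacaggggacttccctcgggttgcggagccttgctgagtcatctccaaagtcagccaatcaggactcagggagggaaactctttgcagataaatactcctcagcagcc
Cxcl3: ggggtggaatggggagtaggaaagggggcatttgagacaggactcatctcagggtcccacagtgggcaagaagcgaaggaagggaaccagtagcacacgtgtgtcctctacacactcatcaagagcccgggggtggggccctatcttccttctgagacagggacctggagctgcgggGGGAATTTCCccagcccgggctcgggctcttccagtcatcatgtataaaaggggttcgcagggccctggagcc
Ccl12: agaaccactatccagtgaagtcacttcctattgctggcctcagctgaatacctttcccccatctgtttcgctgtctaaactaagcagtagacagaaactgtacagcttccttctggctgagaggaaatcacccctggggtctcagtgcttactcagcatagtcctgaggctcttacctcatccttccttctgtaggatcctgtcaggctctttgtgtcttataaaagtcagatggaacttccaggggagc
Ccl19: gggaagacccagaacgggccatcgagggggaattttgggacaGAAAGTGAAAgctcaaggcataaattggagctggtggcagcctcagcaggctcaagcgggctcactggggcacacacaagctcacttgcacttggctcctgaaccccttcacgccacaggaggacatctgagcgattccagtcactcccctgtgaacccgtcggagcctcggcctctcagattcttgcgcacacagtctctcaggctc
Ccl17: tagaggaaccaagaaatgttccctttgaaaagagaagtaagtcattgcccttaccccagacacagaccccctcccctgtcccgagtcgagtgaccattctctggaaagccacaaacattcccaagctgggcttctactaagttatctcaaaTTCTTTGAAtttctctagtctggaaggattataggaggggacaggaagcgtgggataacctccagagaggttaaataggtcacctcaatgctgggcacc

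The ISRE therefore occurred in a ligand that was lower (*Cxcl10*) and in one that was higher (*Ccl19*), with the same 10 letters in both. For *Ccl19*, however, the probe is placed on the plus strand of chromosome 4 (mm9) and the promoter shown on the minus strand (GRCm38.p6). Whether probe and promoter belong to the same copy of *Ccl19* was not tested. Of the 48 promoter entries of the family, 3 held an ISRE (6.25%), against 2.98% of all 32851 entries, in *Cxcl10*, *Cxcl14* and *Ccl19*. The NF-kB motif was in 6 entries (12.5%, against 1.41% of all), of *Cxcl1*, *Cxcl2*, *Cxcl3*, *Ccl9*, *Ccl20* and *Ccr3*. Of these genes *Cxcl3* was lower, *Ccr3* was higher, *Cxcl1* and *Ccl9* met neither criterion, and *Cxcl2* and *Ccl20* were not seen. The GAS was in 3 entries (6.25%, against 7.02% of all), of *Ccl17*, *Ccr6* and *Cxcl14*, of which *Ccl17* and *Ccr6* were higher. Only these letters were searched, so a promoter without a match, or with a match to 1 motif, can hold other forms of these sites. A match is a stretch of letters and says nothing of binding in this tissue.

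Among the receptors, *Cx3cr1* was lower in Cx30 KO. Its signal was 5897 ± 590 in WT against 3527 ± 353 in Cx30 KO (log2 ratio −0.67 ± 0.20), with a Z-score of −2.67. A second probe had 758 ± 75.9 and 489 ± 49.0, with a log2 ratio of −0.56 that did not meet the criteria, so both probes were lower. Of 8 microglial markers, 6 had ratios below 0 on the log2 scale, with a median log2 ratio of −0.36, and *P2ry12* (−1.69), *Aif1* (−0.93) and *Tmem119* (−0.90) met the criteria. *Siglech* and *Itgam* were at 0.13 each. Each marker was well above background on both arrays, between 145 and 60045 in WT and between 42.8 and 62438 in Cx30 KO. The part of microglial content in the *Cx3cr1* value was not tested.

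The 3 receptors that were higher were *Ccr6*, *Ackr2* and *Ccr3*. *Ccr6*, a receptor of lymphocytes and dendritic cells, was 646 ± 64.8 in WT against 1066 ± 106.7 in Cx30 KO (log2 ratio 0.79 ± 0.20). *Ackr2*, the atypical receptor that takes up inflammatory CC chemokines, was 494 ± 49.6 and 864 ± 86.5, a log2 ratio of 0.88 ± 0.20, and its dimmer probe was seen in Cx30 KO only. The mean of the log2 ratios of both probes was larger, 1.09, but the mean of their Z-scores (2.97 and 0.99) was within the limit of 2. *Ccr3*, the eosinophil receptor of several CC ligands, was 4.28 ± 4.30 in WT, not well above background, and 35.7 ± 5.21 in Cx30 KO, so it was at least 1.90-fold higher.

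The other receptors were near equal or dim. *Ackr1*, which venules and erythrocytes carry, was 2782 ± 278 and 3435 ± 344, with log2 ratios of 0.38 and 0.26 at its probes. *Ackr3*, the scavenger of *Cxcl12*, was 428 ± 43.1 and 434 ± 43.6 (0.09). *Ccr8* was 51.1 ± 6.51 and 43.1 ± 5.57 (−0.17), and *Ccr10* was 38.6 ± 6.51 and 34.7 ± 5.88 (−0.08). *Ccr7*, the lymph node homing receptor, was seen in Cx30 KO only, with 7.52 ± 4.53 in WT and 24.7 ± 4.64 in Cx30 KO, at least 1.31-fold higher. It did not meet the criteria. The leukocyte receptors *Ccr1*, *Ccr2*, *Ccr4*, *Ccr9*, *Cxcr1*, *Cxcr2*, *Cxcr3*, *Cxcr4*, *Cxcr5*, *Cxcr6*, *Xcr1* and the atypical *Ackr4* were not seen on either array. Their highest signals were 13.8 in WT and 11.6 in Cx30 KO, both of *Cxcr4*.

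**Figure D4:**
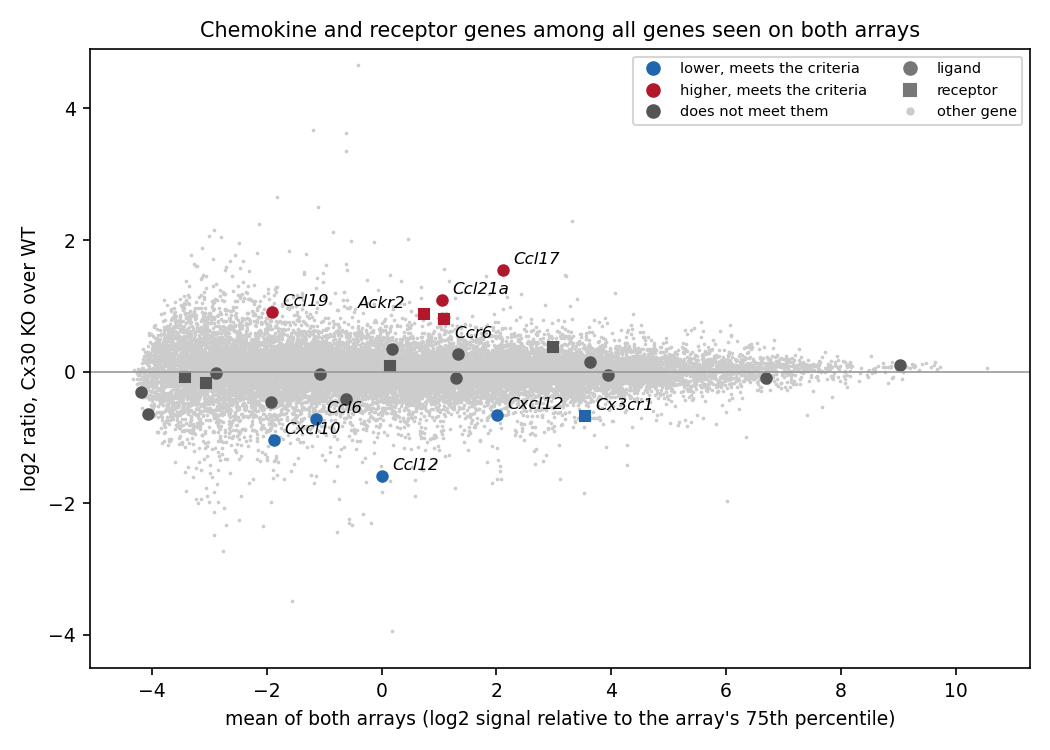
Log2 ratio of Cx30 KO over WT against the mean log2 signal of both arrays, relative to each array's 75th percentile, for all genes seen on both arrays (grey) and the chemokine and receptor genes among them (circles for ligands, squares for receptors). The named genes met the criteria. *Ccl12* and *Ccl17* lie at the lower and upper edge of the cloud at their signal, and the unnamed members lie within it.

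Ligands and receptors were then paired by textbook specificity, which gave 45 pairs with both partners on the array. The list holds no pairs of the atypical receptors *Ackr1* and *Ackr2*. The counts therefore leave out *Ackr2*, which met the criteria as higher. Both partners were seen in 15 pairs, the ligand alone in 20, the receptor alone in 3 and neither in 7. In 1 of these 15 listed pairs both partners met the criteria, and they did so in opposite directions: *Ccl7* was seen in WT only and its receptor *Ccr3* in Cx30 KO only. Neither met the criteria at its limit. In the pair of fractalkine and its receptor, *Cx3cr1* was lower while *Cx3cl1* was 43208 ± 4321 in WT against 38451 ± 3845 in Cx30 KO (log2 ratio −0.10 ± 0.20). A dimmer *Cx3cl1* probe, designed on ENSMUST00000150307, had 102 ± 10.9 and 216 ± 21.9. Its log2 ratio of 1.15 ± 0.21 met the criteria as higher, so the probes of this gene differ by 1.25.

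*Ccl19*, *Ccl21a* and their receptor *Ccr7* were all higher in Cx30 KO by value, though *Ccr7* was dim and did not meet the criteria. *Cxcl12* was lower while its scavenger *Ackr3* was equal within error, and its signalling receptor *Cxcr4* was not seen. *Ccr8* and *Ccl1* did not meet the criteria, nor did *Ccr10* with *Ccl27a* and *Ccl28*. Most ligands that met the criteria were paired with a signalling receptor that was not seen. These receptors were *Ccr2* for *Ccl12* and *Ccl7*, *Ccr1* for *Ccl6*, *Ccr4* for *Ccl17*, *Cxcr3* for *Cxcl10* and *Pf4*, and *Cxcr2* for *Cxcl3*. Conversely, *Ccr6* was higher while its ligand *Ccl20* was not seen.

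**Figure D5:**
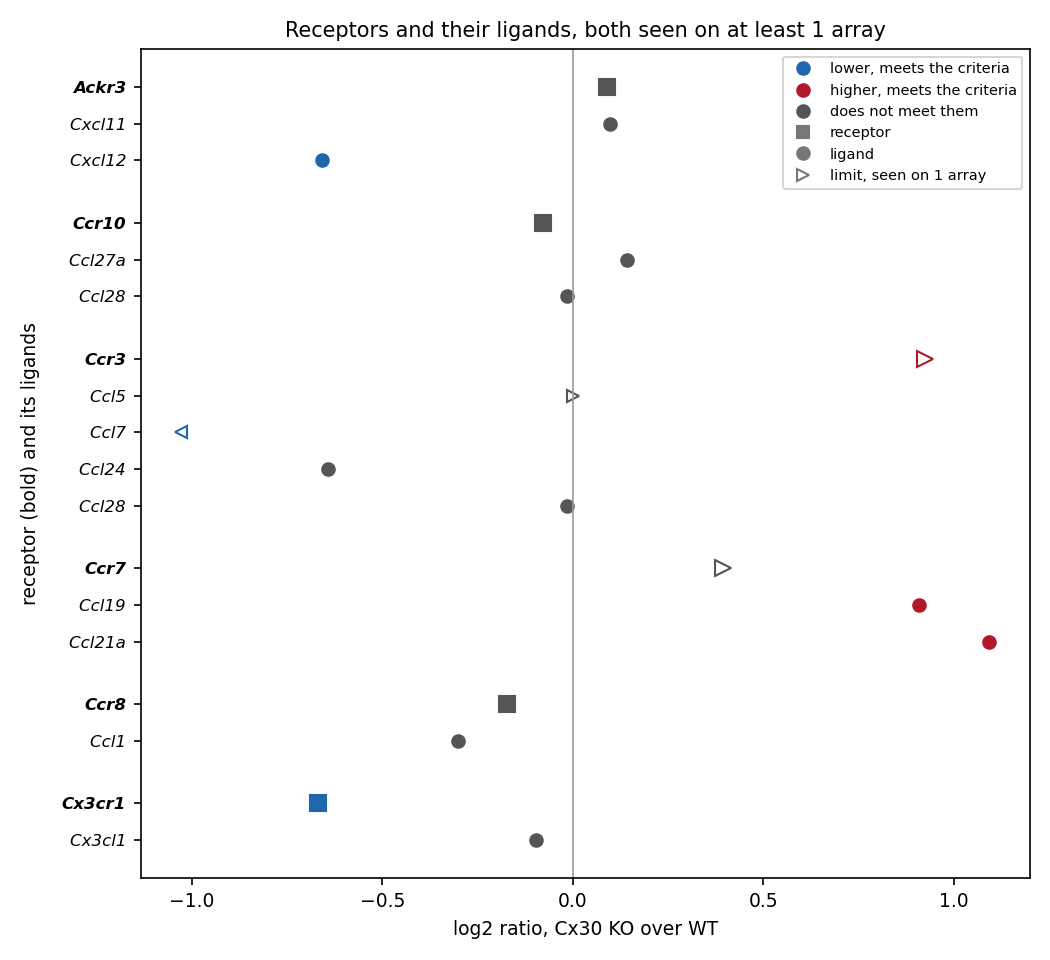
Log2 ratio of Cx30 KO over WT for each receptor (square, bold name) and its ligands (circles) where both were seen on at least 1 array, for 12 of the 15 pairs. Open triangles are limits for genes seen on 1 array. *Ccr7* and both its ligands lie above 0, *Cx3cr1* lies at −0.67 with *Cx3cl1* near 0, and *Ccr3* and *Ccl7* lie on opposite sides.

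Downstream of the receptors, 28 of 30 listed genes for G proteins, arrestins, kinases and Rac activation were seen, and 2 met the criteria, both as higher. These were *Gng2*, a G protein gamma subunit (1250 ± 125 in WT against 2298 ± 230 in Cx30 KO, log2 ratio 0.95), and *Elmo1*, which activates Rac with a DOCK protein (612 ± 61.4 and 1081 ± 108, 0.89). The median of the list was −0.01. Of 13 listed inducers of chemokine genes, 8 were seen, with a median of −0.15. *Irf7*, a transcription factor of the interferon response, was 427 ± 43.0 in WT and 236 ± 24.1 in Cx30 KO, and its log2 ratio of −0.78 met the criteria. *Tnf* was 116 ± 12.3 and 136 ± 14.1 and did not. *Il1b*, *Il6*, *Il17a*, *Ifng* and *Ifnb1* were not seen. Of 13 genes for chemokine-cleaving proteases and non-canonical ligands and receptors, 10 were seen and 0 met the criteria.

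Some markers of several cell types that make chemokines differed between the arrays. Among perivascular macrophage markers, *Cbr2* was 147 ± 15.5 in WT and 71.6 ± 8.43 in Cx30 KO and met the criteria as lower (−0.96), *Mrc1* was seen in WT only (30.2 ± 5.43 and 9.80 ± 4.10), *Cd163* was at −0.41, and *Lyve1* was seen in Cx30 KO only (7.85 ± 4.03 and 24.3 ± 4.23). Of 6 endothelial markers, 4 lay below 0 and 2 above, up to 0.58 for *Pecam1*, with a median of −0.11. Only *Flt1* (−0.93) met the criteria, as lower. The 6 astrocyte markers had 4 below 0 and 2 above, up to 0.17 for *Slc1a2*, with a median of −0.11. Only *Aqp4* (−0.95) met the criteria, as lower. Of 5 meningeal fibroblast markers on the array, 4 were seen, with log2 ratios from −0.33 to 0.26. Among 4 choroid plexus markers *Ttr* (−1.27) met the criteria as lower. *Folr1* (−0.58), *Clic6* (−0.02) and *Kl* (0.23) did not. Monocyte and neutrophil markers were seen for 5 of 7 genes with 0 meeting the criteria. Of these, *S100a9* was at 0.89 with a Z-score of 1.98, just short of the limit. *S100a8* was seen in Cx30 KO only (17.0 ± 4.29 and 42.5 ± 5.48), and the other 3 lay below 0. T and NK cell markers were seen for 2 of 6 genes, likewise with 0 meeting the criteria.

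The dissected tissue also differed in its neuronal and white matter markers. All 8 striatal neuron markers were seen, with log2 ratios from −0.34 to 0.23 and a median of −0.05, so the tissue label is borne out by these genes. All 6 cortical neuron markers had ratios above 0, and 5 met the criteria as higher, with signals of 4.91 to 78.6 in WT and 25.5 to 594 in Cx30 KO. *Neurod2* was 49.0 ± 6.43 in WT and 594 ± 59.5 in Cx30 KO, and *Tbr1* 78.6 ± 9.47 and 423 ± 42.6. All 6 oligodendrocyte markers were below 0, and 4 met the criteria as lower, with a median of −0.70. The part of these shifts in the chemokine values, including *Ccl17*, *Cx3cl1* and *Cxcl12*, was not tested.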

How the data were processed

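Expression was measured on single-colour 60-mer arrays, 1 for WT and 1 for Cx30 KO, each of the pooled striatal RNA of 2 mice, on the same slide. The authors deposited processed signals, linear intensities from Agilent Feature Extraction (version 9.5.1.1 per the labels, 10.7.1.1 per the file headers), after background subtraction and detrending within each array and without normalisation between arrays. They also deposited a table of 1 linear intensity a probe and array, 99.99% of whose ratios lie within 1% of those of quantile-normalised processed signals. Probe positions are in mm9.

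Controls and outlier spots were dropped, log2 signals were averaged over the spots of each probe, and each array was scaled to its 75th percentile. A probe counted as seen when at least 50% of its spots were well above background, and a gene was represented by its brightest seen probe. Where a gene was seen on 1 array only, its fold is a limit, taken against the probe's own signal on the other array or, if higher, that array's lowest signal well above background. Older symbols of 2038 probes were replaced through a RefSeq table, which changed no member's name. One matching name with further suffix text (1) was left out. The error of a log2 ratio combines the software's relative errors of both signals.

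Members were named by the rule that every gene meeting the criteria, or paired with both partners seen, has both signals, and the rest their log2 ratio. The members, lists and pairs were chosen with earlier results of these data known. One gene (1) is counted among the members but its values are not reported here. No tests were made with 1 array a genotype. The calculation was tested on simulated data. Python 3.11.15, numpy 2.4.6, pandas 2.3.3, matplotlib 3.10.9 and, for normexp, limma 3.58.1 in R 4.3.3 were used. Alternatives were scaling by the median, quantile normalisation, normexp with an offset of 50, the authors' value table, no filter on dim probes, both arrays above background, the mean of a gene's probes, limits in place of ratios, Z-scores over all or over 200 probes, and ratio limits of 2 and 0.5. Arrays carry no read depth.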

Additional observations from a re-analysis of the deposited data

How the results depend on the processing

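The numbers of chemokine genes lower (8) and higher (6) in Cx30 KO stayed within 1.5 times under quantile normalisation, scaling by the median, normexp, the authors' value table, no filter on dim probes, the mean of a gene's probes, limits in place of ratios and a Z-score over 200 probes. The lower count was 5 with genes seen on both arrays and 4 with a Z-score over all probes. With ratio limits of 2 and 0.5, 5 genes were lower and 3 were higher. The median log2 ratio of the receptors (0.23) was 0.16 with normexp, 0.0052 for genes seen on both arrays and −0.11 without the filter on dim probes, so its sign depends on dim probes. Of the 14 genes that met the criteria, *Ccl12* and *Ccl17* met them under all 11 alternatives, and *Ccl6* under 7, the fewest. Once probes were averaged, *Cxcl12* went from −0.66 to −0.16 and *Ackr2* from 0.88 to 1.09, and neither met them. *Ccl7*, *Cxcl3* and *Ccr3* did not meet them at their limits. No named gene (0) that met the criteria changed direction under the alternatives. *Ccl5* and *Ccr7* reached the criteria, as higher, when the Z-score used all probes. No paired analysis was possible because each genotype has 1 array. For the same reason no array could be left out, and genes seen on 1 array have only limits.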

Other observations

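*Ccl8*, which encodes MCP-2, was 22.4 ± 5.59 in WT and 4.49 ± 4.52 in Cx30 KO. The scanner software did not mark it as well above background on either array, although its WT signal exceeds the lowest signal so marked (19.8), and its position lies between *Ccl12* and *Ccl1*. Conversely, *Cxcl1* counted as seen in Cx30 KO only, with nearly equal signals of 23.2 in WT and 23.4 in Cx30 KO.

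Both probes of *Cxcl11* were well above background and equal between the genotypes, whereas the sister ligand *Cxcl9* (4.02 in WT and 3.55 in Cx30 KO) and the shared receptor *Cxcr3* (4.78 and 4.21) were not seen, and *Cxcl10* was lower. Although designed on the same transcript (NM_019494), the *Cxcl11* probes read 203346 and 2895 in WT. Whether either signal is *Cxcl11* RNA was not tested. *Cxcl11* lies beside *Cxcl10* on chromosome 5.

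Of the chemokine genes outside the naming rule, *Ppbp* and *Ccr1l1* were not seen. *Ccrl2*, a receptor that binds the chemoattractant chemerin, was 46.0 ± 6.27 in WT against 59.5 ± 7.02 in Cx30 KO, and its log2 ratio of 0.44 did not meet the criteria. No member (0) lies on chromosome 14, which carries *Gjb6*.

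Of 11 members with several seen probes, 8 had all of them on the same side of 0. The exceptions were *Cxcl12* (−0.66 and 0.33), *Cx3cl1* (−0.10 and 1.15) and *Ccl28* (−0.02 and 0.60).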
